A study of Mus musculus with 4 samples.

Results

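The genes described here encode the digestive enzymes of the lysosome, a set of lysosomal membrane proteins and the proton pump that acidifies the organelle. They were chosen by name: the array was searched for 36 listed lysosomal genes and for every gene whose name begins with Atp6v or Atp6ap. The search found 35 of the listed genes and 25 pump genes, 60 genes of 31829 gene names on the array, carried by 70 probes. Of these, 54 genes (63 probes) could be tested, 34 lysosomal proteins other than the pump and 20 pump subunits, and 53 of them were well above background on all 4 arrays. The listed gene Tfeb is named Tcfeb on this array, was not found by the search, and is described apart from the members.

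RNA of mouse splenocytes was measured on 4 Agilent single-colour arrays, 2 with imatinib and 2 without. All cells came from female C57BL/6 mice aged 8 weeks and were cultured with IL-4 and LPS for 72 h, a mixture that drives B cells to divide and to switch antibody class; the imatinib group also received 10 µM imatinib, a kinase inhibitor of ABL, KIT and the PDGF receptors, and the controls did not. The study asked which genes change when imatinib lowers class switching. The labels number the arrays 1 and 2 in each group but do not say whether these are separate animals or cultures, so the p-values measure only the spread between these arrays, which may be technical.

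Lysosomes break down proteins, sugars, glycolipids and lipids delivered by endocytosis, phagocytosis and autophagy. Their acid hydrolases are made in the endoplasmic reticulum, mostly sorted by mannose 6-phosphate receptors, and work at the low pH that the vacuolar proton pump (V-ATPase) sets up. The pump has a membrane sector, V0, through which protons pass, and a cytosolic sector, V1, which splits ATP. In activated B cells and in phagocytes the organelle also processes antigen for MHC class II. Transcription factors of the MiT family, TFEB, TFE3 and MITF, switch on many lysosomal genes together when the kinase complex mTORC1 is inactive, through an E-box element in their promoters.

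A level below is the log2 of a probe's signal relative to the 75th percentile of its array, so 0 is the signal of a fairly bright probe and 1 unit is a doubling. A difference is the imatinib mean minus the control mean of these levels, given ± SE from limma, and a gene is called higher or lower where its Benjamini-Hochberg adjusted p over all probes tested is below 0.05. Levels of different genes are not compared, since probes differ in brightness. The 75th percentile of signal was 647 and 629 with imatinib and 678 and 782 in control, and 24982 to 26737 probes were well above background. Over the tested probes, arrays of a group correlated at 0.997 and 0.998 and arrays of different groups at 0.982 to 0.984. Much of the array differed between the groups: 42.4% of 25373 probes were called, 18.7% higher and 23.7% lower, with 5.91% higher by at least 2-fold. Markers of B cells and of T cells were above background (12 of 12 and 15 of 15 tested).

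With imatinib, 23 of the 54 tested lysosomal genes were called higher, 3 were called lower and 28 did not pass the test. Among all 20542 genes tested, 18.8% were called higher and 22.8% lower, 41.6% in all. The members' share called higher, 42.6%, was thus above that of the array, and their share called lower, 5.56%, was below it. Of the 53 members above background on all 4 arrays, 25 were called higher and 3 lower when the test was limited to such probes. The members' median difference was 0.22 and 44 of the 54 lay above 0 (36 after median centring and 23 with spike-in scaling), while the median of all genes was -0.00 and 49.6% of them lay above 0. Members higher by at least 2-fold numbered 5 of the 54 (Cd63, Atp6v0d2, Ctsl, Hexa and Gm2a), against 6.13% of all genes. Atp6v0d2 entered the test only through the imatinib arrays, so it adds no independent support to this small count. The imatinib and control arrays did not overlap for 47 of the 54 members, against 72.4% of all genes. Scaled to spike-in probes, the members stood at 13 higher and 9 lower, against 11.2% and 45.0% of all genes, and without imatinib replicate 1 or imatinib replicate 2 at 11 and 10 higher and 1 lower, against 9.96% and 9.57% of genes higher. In RNA from a mixed culture, a change in how many cells of a type are present and a change in RNA per cell cannot be told apart.

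**Figure D1:**
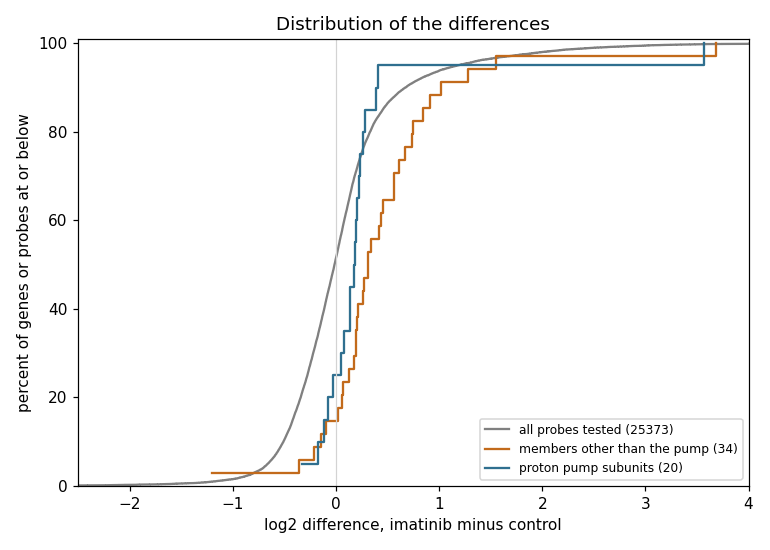
Cumulative distribution of the log2 difference, imatinib minus control, for all 25373 probes tested (grey), the 34 tested members other than the pump (orange) and the 20 tested pump subunits (blue). The curve of the hydrolases and membrane proteins lies to the right of the grey curve (median 0.31), and the pump subunits are bunched just above 0 (median 0.18), apart from Atp6v0d2.

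The 2 classes of members differed in their counts. Of the hydrolases and membrane proteins, 19 of 34 were called higher and 2 lower, with a median of 0.31. Of the pump subunits, 4 of 20 were called higher and 1 lower, with a median of 0.18, a share called higher (20.0%) close to that of all genes. The difference between these classes was not tested.

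Promoters of the members were searched for the E-box that MiT factors bind. RefSeq promoters of mouse build GRCm38.p6, from 250 bases before to 50 after the gene start, were at hand for 50 members, and a gene with several starts was counted once if any of them held the letters. The letters CACGTG, read on both strands, were present in 14 of the 50 (28.0%), against 8.09% of 27025 genes. The longer match TCACGTG, on either strand, which contains the first, was present in 13 of 50 (26%), against 4.29% of all genes. Among members called higher, 9 of 21 held TCACGTG, and among the other tested members 4 of 24. Of the 9, Ctsa, Gaa, Lgmn and Mcoln1 kept the call under quantile normalization, median centring and spike-in scaling. Atp6v0b, Ctsd, Glb1, Lamp1 and Naglu lost it under median centring and spike-in scaling. These counts are a description of letters, and binding was not measured. Whether the element has a part in the differences was not tested. Stretches that end at the base before the gene start, or for Atp6v1a run from -171 to -86, are given below 5′ to 3′ on the gene's strand, with CACGTG in capitals, for the member with most matches (Lamp1), for others called higher, and for Atp6v1a, whose brighter probe did not pass.
Mcoln1 promoter, chr8:3500429-3500518, plus strand: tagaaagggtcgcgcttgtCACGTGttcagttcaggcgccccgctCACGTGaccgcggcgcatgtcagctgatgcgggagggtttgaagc
Lamp1 promoter, chr8:13159071-13159160, plus strand: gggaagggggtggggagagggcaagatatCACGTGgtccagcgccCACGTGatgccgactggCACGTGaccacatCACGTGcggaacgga
Ctsa promoter, chr2:164833733-164833772, plus strand: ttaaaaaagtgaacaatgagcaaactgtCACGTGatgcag
Naglu promoter, chr11:101070004-101070093, plus strand: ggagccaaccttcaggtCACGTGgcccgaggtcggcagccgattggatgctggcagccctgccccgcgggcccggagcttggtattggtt
Glb1 promoter, chr9:114400988-114401077, plus strand: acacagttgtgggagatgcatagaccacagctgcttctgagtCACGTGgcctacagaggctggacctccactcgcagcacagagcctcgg
Lgmn promoter, chr12:102439093-102439182, minus strand: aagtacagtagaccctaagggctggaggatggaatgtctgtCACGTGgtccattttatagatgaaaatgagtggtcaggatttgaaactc
Atp6v0b promoter, chr4:117887330-117887389, minus strand: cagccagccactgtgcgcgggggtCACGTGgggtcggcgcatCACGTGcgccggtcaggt
Atp6v1a promoter, chr16:44139345-44139430, minus strand: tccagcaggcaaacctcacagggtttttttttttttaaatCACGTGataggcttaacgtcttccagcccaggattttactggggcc

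Lamp1 carried 4 matches within 61 bases of its start, with their first bases at -61, -45, -28 and -15. Mcoln1 carried 2, at -71 and -45, and Atp6v0b carried 2, at -36 and -18. Ctsa also carried 2, at -12 and, past the start, at 6. Of the members called higher whose promoters are not printed, matches were found in Ctsd (-245 and -98), Gaa (-140) and Ctsl, whose match at -236 lacked the flanking T. Members not called higher also had matches close to the start: Arsa (-16), Atp6v0d1 (-3) and Atp6v0e (4), with that of Atp6v1a at -131. The windows of Cd63, Hexa and Gm2a, which differed by at least 2-fold, held no match.

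**Figure D2:**
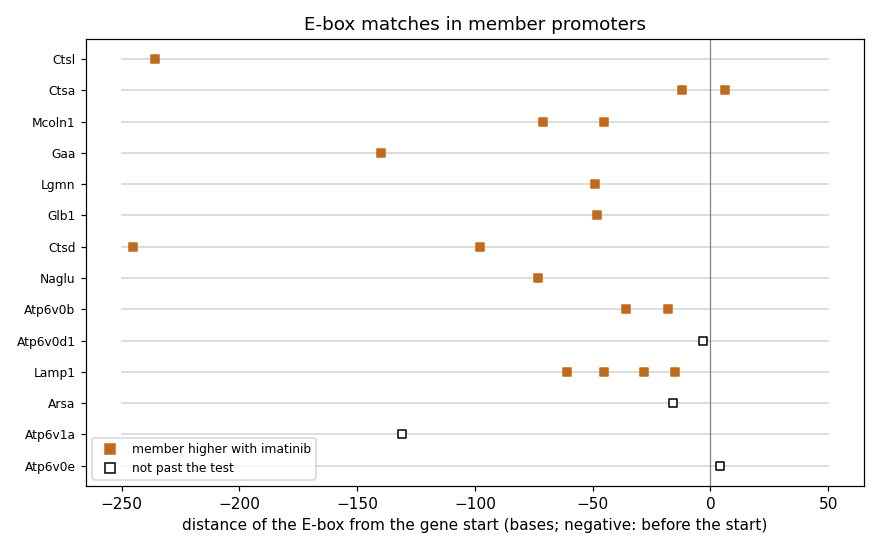
Distance in bases of each CACGTG match from the gene start for the 14 members with one, ordered by their log2 difference from the highest (top); grey lines are the 300 bases searched, filled squares are members called higher with imatinib and open squares did not pass the test. Most matches lie within the last 100 bases before the start, with 4 in Lamp1.

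The lysosomal membrane proteins were higher with imatinib in 4 of 5 cases (18.8% over all genes), with a median difference of 0.56. Cd63, a tetraspanin of lysosomes, secretory granules and exosomes, was at -0.95 and -1.01 in control and 2.72 and 2.70 with imatinib. The groups lay far apart and the arrays of each were nearly alike. Its difference of 3.69 ± 0.060 (adjusted p = 0.00066) was a 12.9-fold rise, the largest fitted difference among the members. Mcoln1, the calcium channel TRPML1, was at 2.45 and 2.35 in control and 3.18 and 3.11 with imatinib, a rise of 0.75 ± 0.070 (adjusted p = 0.0047). Scarb2, also called LIMP-2, which carries glucocerebrosidase to the lysosome, rose by 0.56 ± 0.068 (adjusted p = 0.0077). Lamp1 and Lamp2 make up much of the protein coat on the inside of the lysosomal membrane. Lamp1 rose by 0.28 ± 0.066 (adjusted p = 0.036), from 5.05 and 4.95 to 5.29 and 5.26. Lamp2 had a like difference of 0.26 ± 0.090 that did not pass (adjusted p = 0.084), and its dimmer probe gave 0.25 (adjusted p = 0.072).

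Of the 10 proteases, 7 were higher and none lower (18.8% and 22.8% over all genes), with a median of 0.50. Ctsl, the cysteine protease cathepsin L, was at -1.03 and -0.99 in control and 0.59 and 0.49 with imatinib. These groups were separated by over 1 unit, and the difference of 1.55 ± 0.068 (adjusted p = 0.0010) was a 2.93-fold rise. Ctsa, the carboxypeptidase that also shields beta-galactosidase and neuraminidase, rose from 4.69 and 4.50 to 5.55 and 5.47, by 0.91 ± 0.092 (adjusted p = 0.0055). Its other probe, which was much dimmer, gave a nearly equal difference of 0.94. Tpp1, a tripeptidyl peptidase lost in a form of Batten disease, rose by 0.84 ± 0.071 (adjusted p = 0.0038). Ctsb, cathepsin B, was at 2.63 and 2.53 in control and 3.33 and 3.31 with imatinib, a rise of 0.74 ± 0.067 (adjusted p = 0.0044). Lgmn, the asparaginyl endopeptidase that matures other cathepsins, rose by 0.57 ± 0.084 (adjusted p = 0.011).

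The aspartic protease cathepsin D (Ctsd) and the class II antigen-processing protease cathepsin S (Ctss) had smaller rises, of 0.43 ± 0.076 and 0.31 ± 0.076 (adjusted p = 0.017 and 0.037). The 2 probes of Ctsd disagreed. The brighter one, which stands for the gene, went from 3.49 and 3.35 to 3.84 and 3.87, and the dimmer one fell from -0.11 and -0.16 to -0.40 and -0.38 (difference -0.25, adjusted p = 0.035). The mean of both probes did not pass (0.09, adjusted p = 0.34). The exopeptidases Ctsh (0.17), Ctsz (0.07) and Ctsc (-0.14) did not pass the test.

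Glycosidases and sulfatases, which take apart the sugar chains of glycolipids, glycoproteins and glycosaminoglycans, were split. Here 5 of 12 were higher, 2 lower (18.8% and 22.8% over all genes) and 5 not called, with a median of 0.21. Hexa, the alpha subunit of beta-hexosaminidase, whose loss causes Tay-Sachs disease, was at 1.40 and 1.35 in control and 2.63 and 2.68 with imatinib. All imatinib values lay well above the control values, and the difference of 1.28 ± 0.060 (adjusted p = 0.0012) was a 2.43-fold rise. Gaa, the acid alpha-glucosidase that degrades glycogen, rose by 0.67 ± 0.13 (adjusted p = 0.020), while its dim second probe showed -0.02. Averaged over both probes, the adjusted p of Gaa was 0.058. Glb1, the lysosomal beta-galactosidase, rose by 0.46 ± 0.073 (adjusted p = 0.013). Naglu, which acts on heparan sulfate, rose by 0.42 ± 0.057 (adjusted p = 0.0095), and the beta-mannosidase Manba by 0.34 ± 0.064 (adjusted p = 0.020). The sulfatases Arsa (0.21, adjusted p = 0.052), Ids (0.21) and Arsb (-0.09), the alpha-mannosidase Man2b1 (0.20) and the sialidase Neu1 (0.02) did not pass.

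Gusb, beta-glucuronidase, fell from 3.02 and 3.06 in control to 2.67 and 2.69 with imatinib. The groups did not overlap, and the difference was -0.36 ± 0.058 (adjusted p = 0.014). Without imatinib replicate 1, imatinib replicate 2 or control replicate 2, the adjusted p of Gusb was 0.098, 0.087 and 0.052.

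Idua, the alpha-L-iduronidase of heparan and dermatan sulfate breakdown, was read in opposite directions by its probes. On the brighter probe it was at 1.93 and 1.69 in control and 0.53 and 0.68 with imatinib, a difference of -1.20 ± 0.12 (adjusted p = 0.0049). On the dimmer probe it was at -0.37 and -0.35 in control and 0.48 and 0.44 with imatinib, a difference of 0.82 ± 0.059 (adjusted p = 0.0027). The groups did not overlap on either probe, so the direction of Idua was not settled by these arrays. The brighter probe contains an unbroken run of 20 bases of a dinucleotide repeat, printed here because the dropping of such probes turns the sign of Idua.
Idua brighter probe, repeat run: CACACACACACACACACACA
Of 52 tested probes with an AC or CA run, 36 were called lower and 3 higher, with a median difference of -0.62. Over all probes, 23.7% were called lower and 18.7% higher. The part of the repeat in the opposite readings of Idua was not tested. Without short-repeat probes, Idua counted as higher, and the members stood at 24 higher and 2 lower.

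Of the 8 enzymes and activator proteins of lipid breakdown, 7 could be tested. Of these, 3 were higher and none lower (18.8% and 22.8% over all genes), with a median of 0.20. Gm2a, the activator that lifts GM2 ganglioside out of the membrane for beta-hexosaminidase, was at -0.22 and -0.13 in control and 0.85 and 0.84 with imatinib. The difference of 1.02 ± 0.065 (adjusted p = 0.0022) was a 2.03-fold rise, with no overlap. It rose together with Hexa, its partner enzyme's alpha subunit. Psap, the precursor of the saposins that present sphingolipids to their hydrolases, rose from 3.08 and 3.05 to 3.65 and 3.70, by 0.61 ± 0.060 (adjusted p = 0.0052). Ppt1, which removes palmitate from proteins, rose by 0.31 ± 0.056 (adjusted p = 0.019). Grn (progranulin, 0.20), the acid sphingomyelinase Smpd1 (0.12), the acid lipase Lipa (0.06) and the acid ceramidase Asah1 (0.04 on its dimmer probe and -0.21 on its brighter one) did not pass. The galactosylceramidase Galc was above background on only 1 control array and was not tested.

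**Figure D3:**
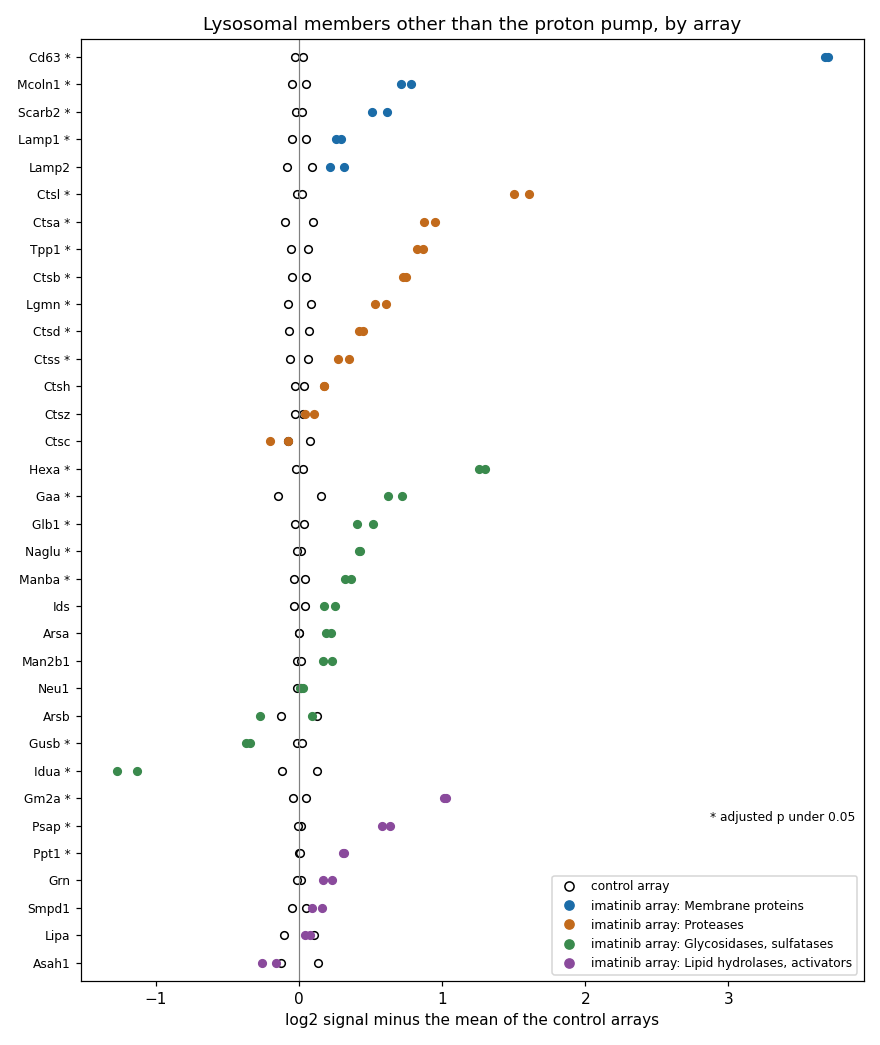
Log2 signal of each array minus the mean of the control arrays (x axis) for the 34 tested members other than the pump, by role; open circles are the 2 control arrays, filled circles the 2 imatinib arrays, and an asterisk marks an adjusted p under 0.05. Cd63 stands at 3.69 above control, most membrane proteins and proteases lie to the right of 0, and Gusb and Idua lie to the left.

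Among the tested pump subunits, the d2 isoform of V0 was above background with imatinib and not in control. In the V0 sector, 3 of 7 tested subunits were higher and 1 lower (18.8% and 22.8% over all genes), with a median of 0.26. Median centring gave 1 higher and 1 lower (13.2% and 35.3% over all genes) and spike-in scaling 1 and 2 (11.2% and 45.0%). Atp6v0d2, the d2 isoform of the V0 stalk that is abundant in osteoclasts and macrophages, was at -7.45 and -8.04 in control, not well above background, and at -4.03 and -4.33 with imatinib, well above background on both arrays. Counted against the mean of the lowest signals called above background on the control arrays, over all probes, it was 4.21-fold higher with imatinib. Those signals are not this probe's own detection limit, so the fold is no firm lower bound. It entered the test only through the imatinib arrays, so its call is no independent support for the members' counts. The fitted difference, 3.56 ± 0.24 (adjusted p = 0.0023), was taken against control values below background and was 0.71 after normexp background correction with an offset of 50. A second Atp6v0d2 probe was above background only on imatinib replicate 2, at -5.12 against -8.36 on imatinib replicate 1. The widely expressed isoform Atp6v0d1 differed by 0.28 ± 0.087 (adjusted p = 0.067), which did not pass.

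The proteolipid subunits of the V0 ring that carries protons, Atp6v0b and Atp6v0c, rose by 0.41 ± 0.059 and 0.26 ± 0.067 (adjusted p = 0.011 and 0.043). The large a subunit, whose isoforms direct the pump to different membranes, went different ways. Atp6v0a2, the isoform of Golgi and early endosomes, fell from 0.03 and 0.18 to -0.28 and -0.16, by 0.33 ± 0.087 (adjusted p = 0.047). That call was lost without any 1 of the 4 arrays (adjusted p of 0.054 to 0.20). Atp6v0a1 differed by 0.14 (adjusted p = 0.27), and Tcirg1, the a3 isoform of lysosomes and osteoclasts that carries another name and is no member, by -0.18 (adjusted p = 0.10). Atp6v0e, a small V0 subunit, showed -0.03. Atp6v0a4 and Atp6v0e2 were above background on no array.

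Of the 11 tested V1 subunits, only Atp6v1d, a part of the rotating stalk, was called higher, by 0.39 ± 0.058 (adjusted p = 0.012). None was called lower, and the median was 0.13. Of all genes, 18.8% were called higher and 22.8% lower. The catalytic subunit Atp6v1a gave 0.18 ± 0.068 on its brighter probe (adjusted p = 0.10) and 0.27 ± 0.059 on its dimmer one (adjusted p = 0.029). The ATP-binding partner Atp6v1b2 (0.13), and Atp6v1c1 (0.21), Atp6v1e1 (0.18) and Atp6v1g1 (0.19) of the stalks lay between 0.13 and 0.21 without passing. Atp6v1f (-0.08), Atp6v1h (-0.18) and the isoforms Atp6v1e2 (0.08), Atp6v1g2 (-0.11) and Atp6v1g3 (0.05) did not pass either. Atp6v1b1 and Atp6v1c2, isoforms of specialised epithelia, were above background on no array. The accessory proteins Atp6ap1 (0.23, adjusted p = 0.057) and Atp6ap2, also the prorenin receptor (0.22, adjusted p = 0.070), did not pass, and Atp6ap1l was above background on no array.

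**Figure D4:**
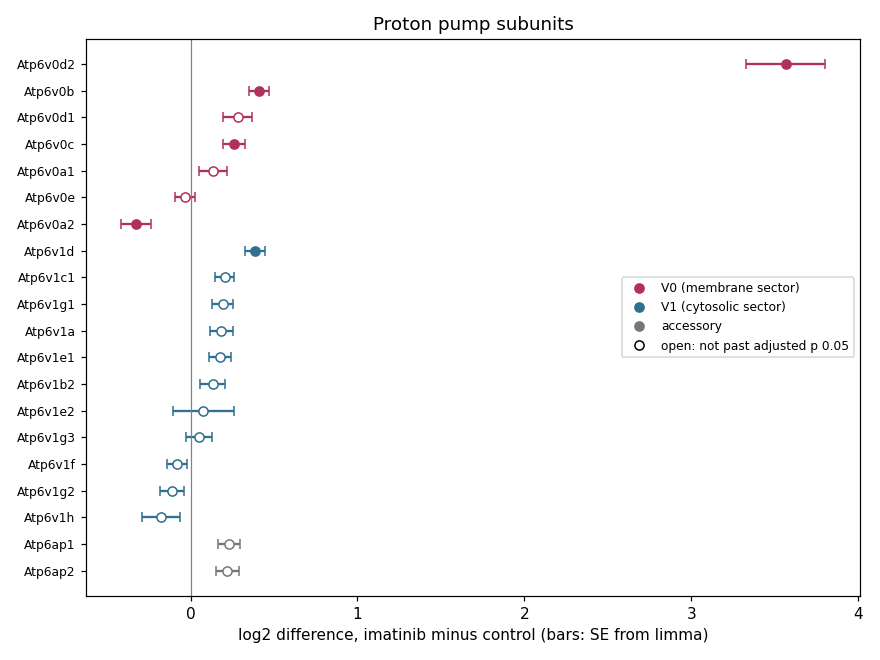
Log2 difference, imatinib minus control, of the 20 tested pump subunits with the SE from limma as bars, 2 arrays a group; filled points passed an adjusted p of 0.05 and open points did not. Atp6v0d2 stands apart at 3.56 with control arrays below background, Atp6v0a2 is the called fall, and the V1 subunits lie between -0.18 and 0.39.

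The called rises were of 2 kinds with respect to scaling. Median centring shifted the median of all genes to -0.18 and spike-in scaling, on 8 added control probes, shifted it to -0.27. Both subtract 1 constant per array, so the members' median stays 0.22 above that of all genes by construction. Median centring gave 13 higher and 3 lower members, against 13.2% and 35.3% of all genes. Spike-in scaling gave 13 higher and 9 lower, against 11.2% and 45.0%. Quantile normalization gave 36 higher and 3 lower, against 18.8% and 23.2%. The 13 members called higher under all 4 scalings were Atp6v0d2, Cd63, Ctsa, Ctsb, Ctsl, Gaa, Gm2a, Hexa, Lgmn, Mcoln1, Psap, Scarb2 and Tpp1, with differences of 0.56 to 3.69. The other 10, with rises of 0.26 to 0.46, were Atp6v0b, Atp6v0c, Atp6v1d, Ctsd, Ctss, Glb1, Lamp1, Manba, Naglu and Ppt1. None of these 10 was called under median centring (adjusted p of 0.051 to 0.43 from limma) or spike-in scaling (0.13 to 0.96), and Atp6v0c turned to -0.01 there. Leaving out imatinib replicate 1 or imatinib replicate 2 also ended the calls of all 10, and left 11 and 10 members higher in all. Without imatinib replicate 1 or imatinib replicate 2, Gaa (adjusted p = 0.087 and 0.069) and Lgmn (0.068 and 0.057) did not pass either, nor did Scarb2 without imatinib replicate 2 (0.055). Gusb, Atp6v0a2 and the brighter Idua probe were called lower under all 4 scalings. Median centring and spike-in scaling moved every difference down, so a fall could only grow there. Keeping the lower call under these 2 scalings is thus no sign of robustness.

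**Figure D5:**
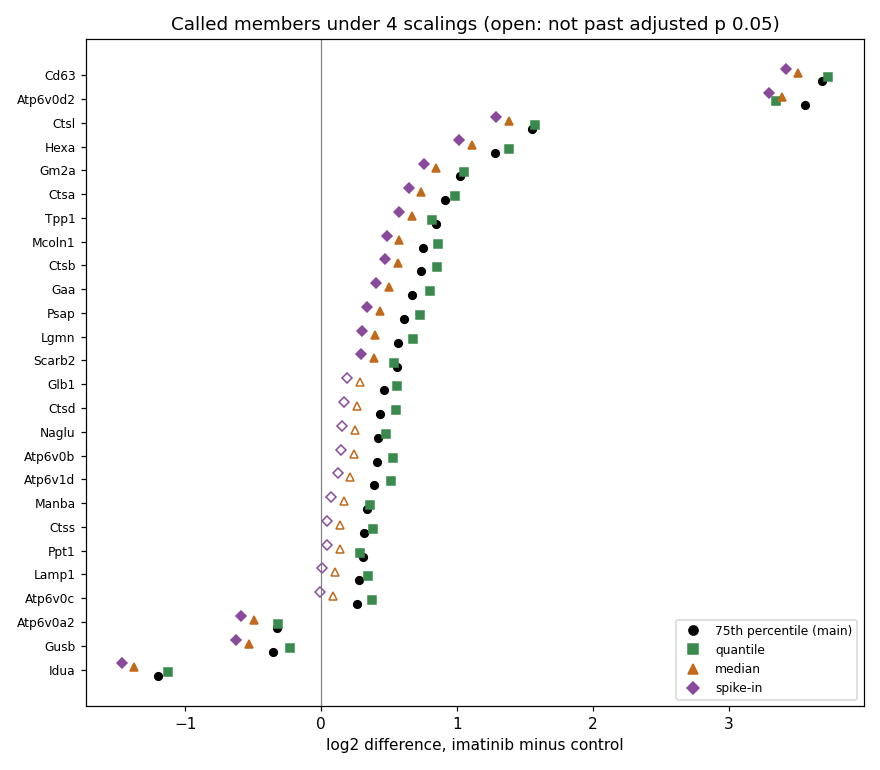
Log2 difference, imatinib minus control, of the 26 called members under scaling to the 75th percentile (circles), quantile normalization (squares), median centring (triangles) and spike-in scaling (diamonds); open symbols did not pass an adjusted p of 0.05. The upper 13 members keep filled symbols under all 4, and the next 10 lose the call under median centring and spike-in scaling.

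The regulator Tfeb was slightly lower with imatinib. It was at 0.87 and 0.87 in control and 0.40 and 0.55 with imatinib, a difference of -0.39 ± 0.076 (adjusted p = 0.021). The arrays did not overlap, but the adjusted p was 0.061 to 0.11 without any 1 of the 4 arrays. Of its relatives, Mitf rose by 0.54 ± 0.079 (adjusted p = 0.011) and Tfe3 showed -0.07 (adjusted p = 0.48). Of the 31 listed genes of MiT factors, other E-box factors and mTORC1 control, 29 were tested. Among the 29, 12 were higher and 3 lower (18.8% and 22.8% over all genes), with a median of 0.09. After median centring there were 9 higher and 8 lower (13.2% and 35.3% over all genes), with a median of -0.08. With spike-in scaling there were 8 and 10 (11.2% and 45.0% over all genes), with a median of -0.17. Of the 26 genes above background on all 4 arrays, 9 were higher and 4 lower. Over all 29 genes tested, fewer were called without imatinib replicate 1 or imatinib replicate 2, with medians of 0.14 and 0.12. The folliculin complex, which acts on the Rag GTPases and holds MiT factors in the cytoplasm, was higher: Fnip1 by 1.11 ± 0.058 and Flcn by 0.95 ± 0.064 (adjusted p = 0.0014 and 0.0024). Fnip2 and Ppargc1a, picked out after their values were seen, were not well above background in control. Both entered the test only through the imatinib arrays, where they were above background, so their calls are no independent support. Counted against the same lowest signals as Atp6v0d2, they were 3.27-fold and 1.88-fold higher (adjusted p = 0.0076 and 0.0094). Rragd, a Rag GTPase, was at -5.85 and -6.44 in control and -4.24 and -4.00 with imatinib, above background on 3 of the 4 arrays. The E-box factor Usf2 rose by 1.09 ± 0.074 (0.55 over the mean of its probes), and Mtor, the kinase of the complex, fell by 0.61 on the log2 scale (adjusted p = 0.0078), a call lost without imatinib replicate 1 (0.053) or imatinib replicate 2 (0.0501).

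Other lysosomal hydrolases, 41 genes outside the members of which 37 were tested, were higher in 20 cases and lower in none. Their median was 0.43, and of all genes 18.8% were called higher and 22.8% lower. Spike-in scaling gave 14 higher and 7 lower (11.2% and 45.0% over all genes). Fewer were called higher without imatinib replicate 1 or imatinib replicate 2, where the median was 0.41 and 0.42. The 2 lysozymes that digest bacterial walls led, Lyz1 by 3.30 and Lyz2 by 2.79 (adjusted p = 0.00068 and 0.00074), and as near-identical copies they may not be told apart by their probes. Ctsw, the cathepsin of cytotoxic lymphocytes, rose by 1.81 (adjusted p = 0.0010). Sgsh, the heparan sulfatase, rose by 1.63 on a probe with a repeat run, and by 0.46 without short-repeat probes.

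Of 42 other lysosomal membrane genes, 41 were tested, 20 higher and 3 lower (18.8% and 22.8% over all genes), with a median of 0.26. Under spike-in scaling there were 11 higher and 7 lower (11.2% and 45.0% over all genes), with a median of -0.00. Leaving out imatinib replicate 1 gave 9 higher, and leaving out imatinib replicate 2 gave 10. Gpnmb, a glycoprotein of melanosomes and of phagocyte lysosomes, had the largest difference, 4.63 ± 0.17 (adjusted p = 0.00082). Slc11a1, the metal transporter of phagosomes, rose by 2.60 ± 0.10 (adjusted p = 0.00095). Tmem55a, a phosphoinositide phosphatase, rose by 1.22 on its only tested probe, which holds a repeat run. Slc17a5, the sialic acid exporter, was called lower by -1.01 on a probe with such a run and higher by 1.24 without short-repeat probes, so its direction was not settled.

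A further list held 11 genes under other names, the pump subunit Tcirg1 and genes tied to the pump's regulation or assembly. Of these, 9 were tested, 4 higher and 1 lower (18.8% and 22.8% over all genes), with a median of 0.36. The subunit Tcirg1 was not among those called. Median centring gave 2 higher and 3 lower (13.2% and 35.3% over all genes) and spike-in scaling 2 and 4 (11.2% and 45.0%). The median was -0.025 without control replicate 1. Oxr1 rose by 0.57 and the V-ATPase regulators Dmxl1 and Rogdi by 0.52 and 0.45, while the assembly factor Tmem199 fell by 0.47 on the log2 scale. Without imatinib replicate 1 or imatinib replicate 2, Tmem199 (adjusted p = 0.060 and 0.059) and Rogdi (0.065 and 0.070) did not pass, and Dmxl1 did not pass without imatinib replicate 2 (0.073) or control replicate 2 (0.055). Without imatinib replicate 1 or imatinib replicate 2, 2 and 1 of the 9 were higher.

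Genes that sort hydrolases to the lysosome and move the organelle were called in both directions, as were all genes. Of 49 tested, 13 were higher and 9 lower (18.8% and 22.8% over all genes), with a median of 0.08. After median centring there were 5 higher and 15 lower (13.2% and 35.3% over all genes), with a median of -0.09. With spike-in scaling there were 3 and 18 (11.2% and 45.0% over all genes), with a median of -0.19. The receptors for mannose 6-phosphate parted, Igf2r rising by 0.57 ± 0.068 and M6pr falling by 0.37 on the log2 scale (adjusted p = 0.0077 and 0.012); Igf2r was not called under spike-in scaling (adjusted p = 0.056) or without imatinib replicate 1 (0.055). Arl8a, which couples lysosomes to kinesin, and Dtnbp1, a BLOC-1 subunit, rose by 0.57 and 0.56, and Vps33b fell by 0.60 on the log2 scale. Dtnbp1 and Vps33b did not pass without imatinib replicate 1 (adjusted p = 0.063 for both) or imatinib replicate 2 (0.053 and 0.057), nor did Arl8a without imatinib replicate 2 (0.051). Without imatinib replicate 1 or imatinib replicate 2, 2 of the 49 were called higher in each case, and 0 and 1 lower. Sort1, the sorting receptor sortilin, was at -6.41 and -6.45 in control and -4.71 and -4.95 with imatinib, on a probe above background only with imatinib.

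Cathepsin inhibitors were 5 higher and 2 lower of 13 tested (16 listed), against 18.8% and 22.8% of all genes. Their median was 0.14 (-0.03 after median centring, -0.13 with spike-in scaling). Cst7 (cystatin F, which enters lysosomes and blocks cathepsin C) rose by 2.73 ± 0.064 and Cst6 by 2.02 ± 0.098 (adjusted p = 0.00068 and 0.0012). Serpina3g fell by 1.26 on the log2 scale (adjusted p = 0.0012). Serpinb6a rose by 0.42, a call lost with both of these scalings and without imatinib replicate 1, imatinib replicate 2 or control replicate 2 (adjusted p = 0.086, 0.058 and 0.054). Of the 13, 2 were higher without imatinib replicate 1, and 2 without imatinib replicate 2.

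Markers of several cell types differed between the groups as well, where 18.8% of all genes were called higher and 22.8% lower. Of 17 macrophage markers, 10 were tested, 6 were higher and none lower, with a median of 1.63: Adgre1 (F4/80), Apoe, Cd14, Marco, Mrc1 and Msr1. Their summed level, in multiples of the 75th percentile signal, was 14.0 and 14.2 with imatinib and 4.97 and 5.20 in control. Csf1r (0.26), Mpeg1 (-0.16), Siglec1 (-0.41) and C1qb (-0.03) did not pass, and C1qa, C1qc, Fcgr1, Mertk, Vsig4, Cd163 and Timd4 were not above background on both arrays of a group. Of 15 T cell markers, 13 were higher and none lower, with a summed level of 49.0 and 49.5 with imatinib against 24.4 and 25.4. Of 12 B cell markers, 4 were higher and 6 lower, with a summed level of 279.5 and 289 against 307 and 329. The B cell counts were 1 higher and 8 lower with spike-in scaling (11.2% and 45.0% over all genes). Fewer B cell markers were called without imatinib replicate 1 or imatinib replicate 2, where their median was -0.15 and -0.19. The other lists were neutrophil markers (4 higher and 1 lower of 7), mast cell and basophil markers (4 and 1 of 5), dendritic cell markers (2 and 2 of 6), NK cell markers (2 and 0 of 3), erythroid markers (2 and 0 of 4), platelet markers (0 and 0 of 3) and stromal markers (0 and 0 of 1). Some of these markers were not above background on all 4 arrays. Limited to probes that were, macrophage markers stood at 5 higher and 0 lower of 8. Mast cell and basophil markers then stood at 2 and 1 of 3, neutrophil markers at 3 and 1 of 6, and dendritic cell markers at 1 and 2 of 5. The part of the marker shifts in the lysosomal differences was not tested.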

How the data were processed

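The authors' scanner output, made with Feature Extraction 9.1.3.1 per the file headers, gives each spot's fluorescence intensity; the background-subtracted processed signal was used. The deposited value table holds log2 values; set against the scanner output, 99.88% to 99.93% of an array's probes differed from log2 processed signal by the same constant within 0.01. All 4 arrays lay on 1 slide with 1 scan, controls at positions 1 and 3 and imatinib at 2 and 4.

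Control spots and spots marked as outliers were left out, spots of a probe were averaged and the array's 75th percentile subtracted. Probes well above background on both arrays of a group were tested (25373, after 62 were left out for marked spots). The test was limma 3.58.1 in R 4.3.3 (lmFit and eBayes, two-sided, a term for group and no other), and Benjamini-Hochberg adjustment ran over all probes; the fit had 2 residual and 2.06 prior degrees of freedom. With 2 arrays a group, exact permutation cannot give p below 0.333, so it was not run. The procedure was tested on simulated data. The number of arrays limits the precision.

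A gene's value came from its brightest probe on average. Other lists were named through RefSeq accessions (26055 probes), symbols (3195) or synonyms (930), and 9249 of 39429 probes kept the file's name. Values on all arrays are given for members called with a log2 difference of at least 1, for the 3 largest called falls, for members seen in 1 group and for Tfeb; further members were added for their roles. Of each other list, up to 4 genes with the largest called differences are named, genes above background on all 4 arrays first, which placed Sort1 and Rragd behind the others; Sort1, Rragd, M6pr, Mitf and Tfe3 were added after their values were seen. The members and lists were chosen with earlier results of these data known.

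There were 15 alternatives: background correction, scaling (3), filters on dim probes (2), replicate block, deposited table, variance model, short-repeat probes, mean over probes and each array left out (4).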

Additional observations from a re-analysis of the deposited data

How the results depend on the processing

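Counts are called higher / lower. The members stood at 23 / 3, with a median of 0.22. Cd63, Ctsa, Ctsb, Ctsl, Gm2a, Hexa, Mcoln1, Psap, Tpp1 and Atp6v0d2 were called higher under all 15 alternatives that could measure them; Atp6v0d2 could not be measured where probes had to be above background on all 4 arrays.

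Normexp correction gave 7 pump subunits higher and 28 genes of the other lists lower (from 4 and 18), with 22.4% / 25.7% of all genes called. Quantile normalization gave 36 members and 11 pump subunits higher (18.8% of all genes), with a median of 0.31. Median centring gave 13 members higher (12 other than the pump, 1 pump subunit), 48 / 39 over the other lists (from 74 / 18), 9251 probes lower (from 6016) and a median of 0.043. Spike-in scaling gave 13 / 9 members, 12 / 4 other than the pump, 1 / 5 pump subunits, 40 / 50 over the other lists, 2802 / 11738 probes and a median of -0.051; Atp6v0c turned to -0.0060. With no filter on dim probes there were 13 / 1 members (7.29% / 5.78% of all genes), 11 / 1 other than the pump and 2 / 0 pump subunits. The other lists then stood at 41 / 9 and all probes at 2812 / 2374. Trend and robust variance gave 35 members and 11 pump subunits higher and 32 genes of the other lists lower, with 22.0% / 28.2% of all genes called. The deposited table left 0 pump subunits lower. Without short-repeat probes, and with the mean over probes, 1 member other than the pump was lower; Idua turned to 0.82 without short-repeat probes, and Slc17a5 to 1.24 without them and 0.11 with the mean over probes. The cause of these changes was not tested.

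The labels do not say whether same-numbered arrays are paired. The correlation of same-numbered deviations over the tested probes was -0.07, which cannot show whether they are. With the replicate block there were 18 / 2 members (14.7% / 14.9% of all genes), 0 pump subunits lower, 11 genes of the other lists lower and 3958 probes lower.

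With each array left out, members ranged from 10 to 19 higher and 1 to 2 lower, those other than the pump from 9 to 16 and 1 to 2, pump subunits from 1 to 3 and 0 to 0, the other lists from 34 to 61 and 3 to 11, all probes from 2377 to 4560 and 1704 to 4425, and the median from 0.21 to 0.23. The lone array of a group was then assumed to vary like the other group.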
